A study of Homo sapiens with 6 samples.

Results

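The NF-kB system was described in UMUC3 cells through 42 genes: the transcription factor subunits, the kinases and adaptors that release them, the inhibitors that shut them down, the receptors upstream, and a set of ligands and targets. They were taken by symbol from the 60605 genes of the count table, and all 42 were found. UMUC3 is an established human bladder cancer line. One group of 3 libraries came from cells infected with the lentiviral construct TIM-1-PLVX-IRES-zsgreen, which carries TIM-1 and a green fluorescent protein, and the other 3 from cells infected with the same vector lacking TIM-1. The cells of both groups therefore carried the vector and its fluorescent protein, and uninfected cells were not analysed here. TIM-1, encoded by HAVCR1, is a surface receptor for phosphatidylserine. The libraries are numbered 1 to 3 in each group, and the labels do not tie the numbers to separate cultures or clones, so a p-value speaks to how these libraries varied and that variation may be technical.

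NF-kB factors are dimers that wait in the cytoplasm, bound to inhibitory IkB proteins or held in uncut precursors. In the canonical route, receptors for TNF or interleukin 1 activate the kinase TAK1 and then the IKK complex, which marks IkB for destruction and frees RELA and NFKB1 dimers. In the noncanonical route, receptors such as LTBR, CD40 and TNFRSF12A let the kinase NIK accumulate, and NIK and IKK alpha drive the cutting of NFKB2, which pairs with RELB. Many of the brakes, including NFKBIA, TNFAIP3, BIRC3 and NFKB2 itself, are transcribed by NF-kB, so their mRNA is known as a readout of the pathway. The counts report mRNA only, with nothing on cutting, phosphorylation or nuclear entry.

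Total counts ran from 14312387 to 18605914 per library. HAVCR1 counts by replicate number were 7069, 9824 and 11479 in the TIM-1 libraries against 4, 0 and 0 in the controls, as the labels say. Values by library below keep that order of replicates 1, 2 and 3, and controls are the empty-vector libraries. Of 5 epithelial and mesenchymal markers of the line, VIM, KRT18 and KRT8 were well detected, KRT7 was low and EPCAM had 0 counts in every library. Of 5 leukocyte markers 4 had 0 counts in all libraries, and the fifth, CD14, had 3 counts in all. The summed level of the leukocyte list reached at most 0.0690 CPM (counts scaled to a common library size with the TMM factors) in a TIM-1 library and 0.0626 CPM in an empty-vector library. In both groups the replicate 1 library differed from the others, and the NF-kB genes were among those that separated it. Both replicate 1 libraries were the 2 lowest of the 6 for 22 of the 40 members that could be tested (55%), against 20.4% of all tested genes. They were the 2 highest for 4 members (10%), against 19.2% of all tested genes. Changes with TIM-1 below are paired by replicate number unless called unpaired, and the unpaired value is printed as well for each called member.

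Without pairing, 0 of 40 tested members passed the adjusted threshold of 0.05 in either direction in the quasi-likelihood test of edgeR, and 0 by unpaired DESeq2. Over all 14479 tested genes the edgeR test called 0.0138% higher and 0% lower. RIPK1 was the 1 member with an unadjusted p under 0.05 (2.5%, against 5.49% of all tested genes). Without empty-vector replicate 1 there were 10 such members of 40, against 1945 of 14854 tested genes. That setting leaves the TIM-1 replicate 1 library without its same-numbered control. Such members numbered 0 without TIM-1 replicate 1 or empty-vector replicate 2 or 3, against 866 of 14809, 490 of 14909 and 558 of 14897 tested genes. With the replicate number as a block, 8 of the 40 members fell (20%) and 0 rose, against 1.79% of all tested genes lower and 3.22% higher. Those 8 were NFKB2 and RELB of the noncanonical arm, the adaptors BIRC3 and RIPK1, the feedback genes NFKBIA, TNFAIP3 and CYLD, and the receptor gene TNFRSF21. The correlations between libraries separate replicate 1 but not replicate 2 from 3, and with replicate 1 against the others as the block 6 of the 40 fell, against 1.12% of all tested genes lower, with CYLD and TNFRSF21 lost. The members had a median paired log2 fold change of -0.12, and all tested genes one of 0.00. TIM-1 was the lower library in all 3 same-numbered pairs for 15 members (37.5%, against 19.1% of all tested genes). These included TNF with 0 against 2 counts in the replicate 1 pair, and NFKBIE with 382 against 383 in the replicate 2 pair. TIM-1 was the higher one in all 3 pairs for TAB2, TRAF5 and CD40 (7.5%, against 20.1%). It was the higher one in all 3 pairs for TAB2, TRAF5 and CD40 (7.5%, against 20.1%). These libraries are bulk samples, in which fewer cells of a kind and less RNA per cell cannot be told apart. Some of the listed markers moved in the same paired test, and not in 1 direction. KRT18 fell from 409 ± 98.7 to 343 ± 62.8 CPM (edgeR adjusted p = 0.00946). The luminal factor gene GATA3 fell from 1.92 ± 0.690 to 0.801 ± 0.142 CPM (edgeR adjusted p = 0.0457). PPARG, another luminal factor gene, rose from 5.25 ± 0.748 to 8.08 ± 0.487 CPM (edgeR adjusted p = 0.0185; SD, n = 3 each). Unscaled counts of KRT8 were 724, 718 and 796 with TIM-1 against 685, 693 and 763 in the controls. Those of VIM were 20479, 28031 and 32791 against 25440, 28124 and 35160. The summed level of the 5 luminal markers was 9.31 to 9.96 CPM with TIM-1 and 6.26 to 8.72 CPM in the controls, with UPK3A at 0, and that of the line markers was 1735 to 2204 CPM and 1951 to 2678 CPM. The part of these changes in the NF-kB result was not tested.

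**Figure D1:**
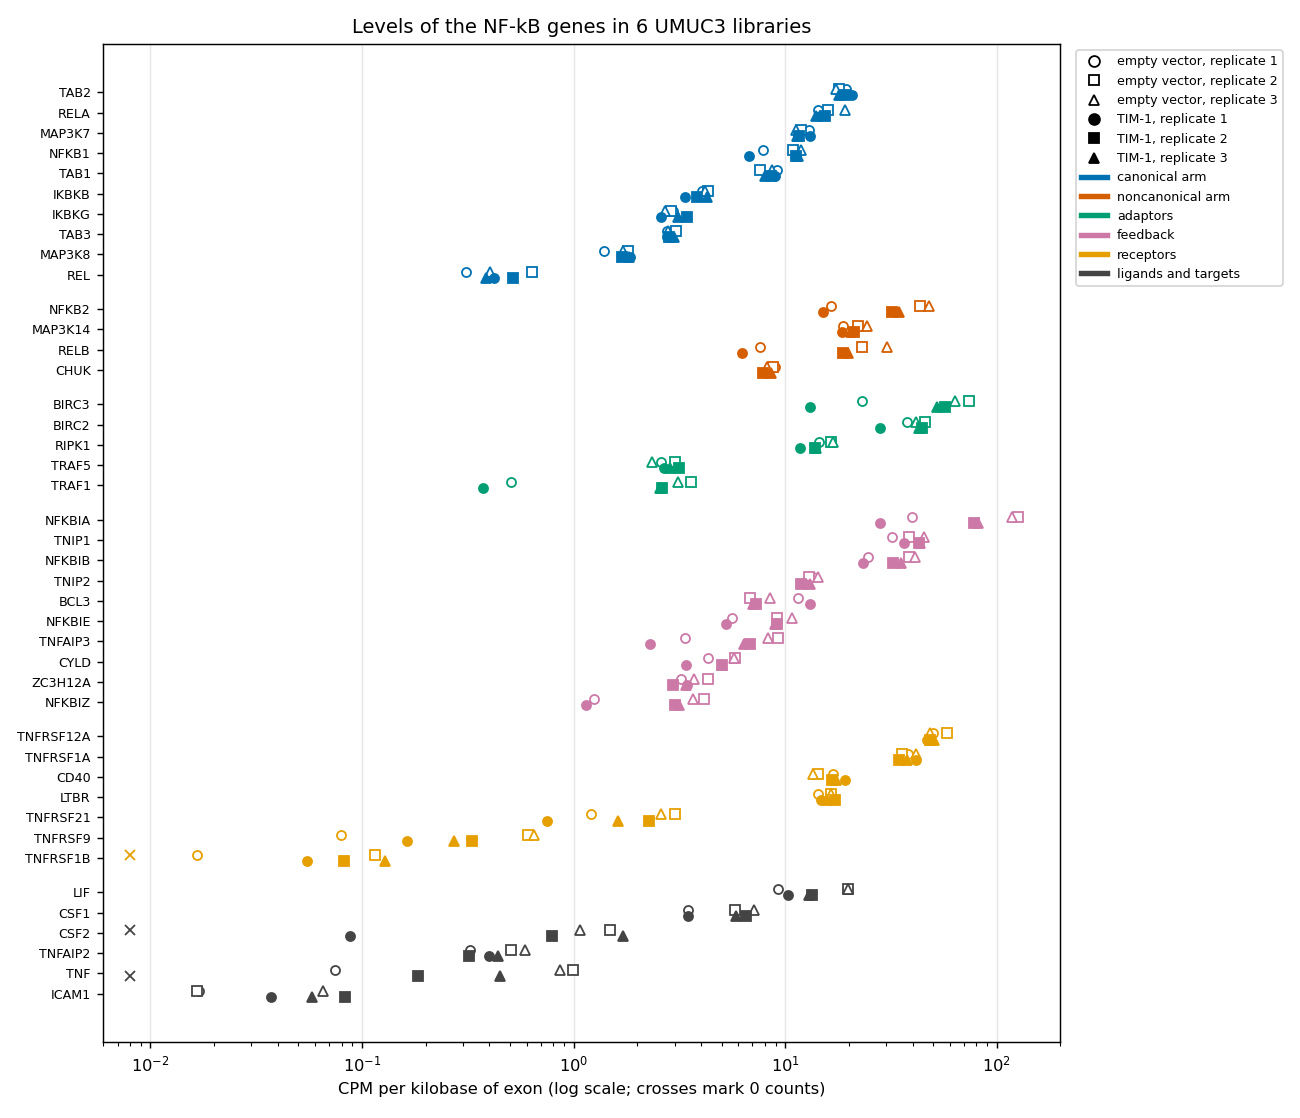
Level of each of the 42 genes in each library, in CPM per kilobase of annotated exon on a log axis, with open symbols for the empty vector, filled symbols for TIM-1 and a symbol shape per replicate number. NFKBIA had the highest empty-vector mean, at 94.7 CPM per kilobase, ICAM1 and TNFRSF1B lay near 0, and crosses mark libraries with 0 counts.

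The canonical arm was detected in all libraries and had no called member. Of its 10 genes 0 passed in either test, against 1.79% of all tested genes lower and 3.22% higher in the paired test. With shares that low, 0 calls among so few genes does not set this arm apart. Of the 10, 5 had a paired log2 fold change below 0 and 5 above, and the median was 0.00. RELA, the main activating subunit, stood at 79.9, 84.0 and 76.3 CPM in TIM-1 replicates 1, 2 and 3 and at 78.4, 87.2 and 105 CPM in the empty-vector replicates. The ranges overlap, with empty-vector replicate 3 above the other 5 libraries. RELA had the largest difference of this arm over all 3 pairs, a paired log2 fold change of -0.16 (SE 0.08, edgeR adjusted p = 0.234), and this rested on the replicate 3 pair, without which it was -0.01 (edgeR adjusted p = 0.972). TAB2, an adaptor that tethers TAK1 to ubiquitin chains, had the highest level per length of the arm, at 18.2 ± 1.06 CPM per kilobase with the empty vector (SD, n = 3). Its TIM-1 libraries stood at 125, 116 and 108 CPM and its controls at 117, 107 and 105 CPM, in overlapping ranges (paired log2 fold change 0.08, SE 0.07, edgeR adjusted p = 0.550). MAP3K7, which encodes TAK1, and its partners TAB1 and TAB3 had paired log2 fold changes of 0.00, 0.01 and -0.00.

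The IKK subunit genes did not pass either. IKBKB, the catalytic subunit of the canonical route, had a paired log2 fold change of -0.14, and IKBKG, the scaffold subunit NEMO, one of 0.09. IKBKG has a near-identical pseudogene copy, so its counts are uncertain. NFKB1, the gene of the p105 precursor and p50, was lower in replicate 1 than in replicates 2 and 3, by a mean log2 difference of -0.64 over both groups. Its TIM-1 difference was small beside that, at -0.07 (SE 0.08, edgeR adjusted p = 0.701). REL, a subunit best known from lymphocytes, was the scarcest of the 5 subunit genes at 0.450 ± 0.170 CPM per kilobase with the empty vector (SD, n = 3). MAP3K8, a kinase held by p105, had a paired log2 fold change of 0.13 (SE 0.17).

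In the noncanonical arm the genes of the transcription factor pair fell with TIM-1 in the paired test, while the kinase genes did not pass. NFKB2, the precursor of p52, stood at 67.8, 143 and 154 CPM in TIM-1 replicates 1, 2 and 3 and at 73.7, 195 and 215 CPM in the empty-vector replicates. Replicate 1 was low in both groups, so the ranges overlap, but TIM-1 was the lower library in each pair, by log2 ratios of -0.12, -0.45 and -0.48. The paired log2 fold change of NFKB2 was -0.36 (SE 0.07, edgeR adjusted p = 0.000429), and the unpaired one was -0.41 (SE 0.52, edgeR adjusted p = 0.940). Without the replicate 2 pair the paired adjusted p was 0.0968.

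RELB, the partner of p52, showed the same arrangement at lower levels. It stood at 18.9, 57.0 and 60.1 CPM with TIM-1 and at 23.1, 70.1 and 91.7 CPM in the controls, in overlapping ranges. The pair ratios were -0.29, -0.30 and -0.61 on the log2 scale, so the pair of replicate 3 had the largest difference. RELB had a paired log2 fold change of -0.42 (SE 0.08, edgeR adjusted p = 0.000728) and an unpaired one of -0.44 (SE 0.67, edgeR adjusted p = 0.951). Without the replicate 3 pair its adjusted p was 0.0787. MAP3K14, the gene of NIK, had a paired log2 fold change of -0.11 (SE 0.07, edgeR adjusted p = 0.367), and CHUK, the gene of IKK alpha, one of -0.08 (SE 0.08, edgeR adjusted p = 0.657). The span of MAP3K14 overlaps that of MAP3K14-AS1 on the other strand, and whether counting used strand is not known here. The span of CHUK overlaps that of ERLIN1 on the same strand, where strand would not tell their reads apart.

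Per length, NFKB2 was the most abundant of the 5 subunit genes with the empty vector, at 36.0 ± 17.1 CPM per kilobase. RELB followed at 20.3 ± 11.6, RELA at 16.5 ± 2.46 and NFKB1 at 10.2 ± 2.10 CPM per kilobase (SD, n = 3 each). The wide SD of NFKB2 and RELB comes with their low replicate 1 values, and the levels of NFKB2, RELB and RELA overlap between libraries.

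**Figure D2:**
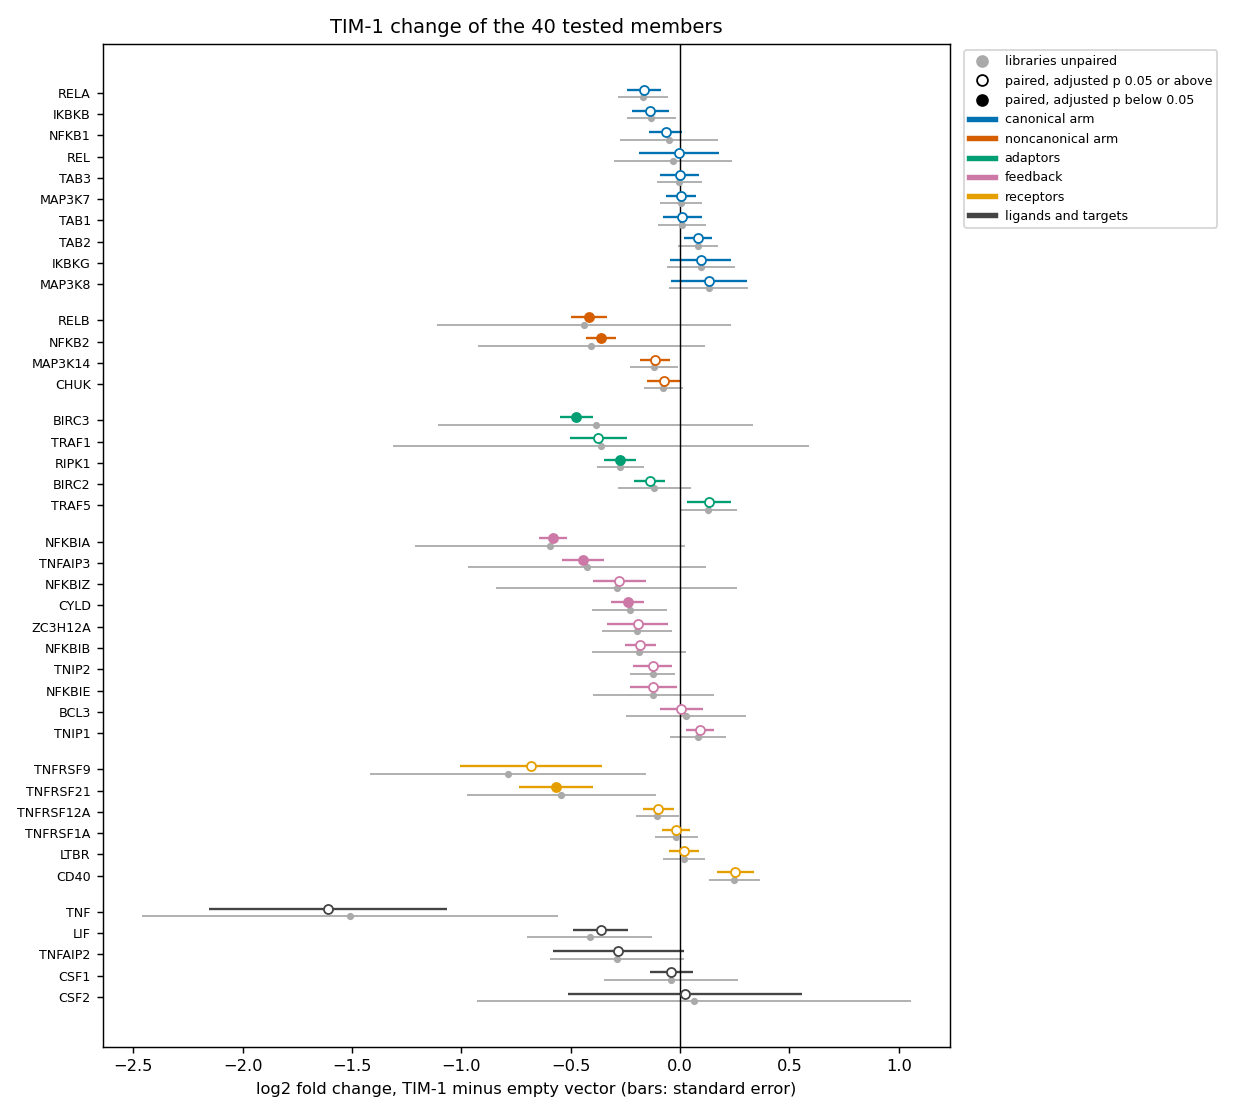
Log2 fold change of TIM-1 minus empty vector for the 40 tested members by role, with standard errors, unpaired in grey and paired by replicate number in colour. The 8 filled points are the members below the adjusted threshold in the paired test, from CYLD at -0.24 to NFKBIA at -0.58, and their unpaired standard errors are wider, most of all for BIRC3 at 0.72.

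Among the 5 adaptors 2 fell in the paired test, BIRC3 and RIPK1, and 0 rose, against 1.79% of all tested genes lower and 3.22% higher. BIRC3 had the highest mean level per length of them, 53.3 ± 26.7 CPM per kilobase with the empty vector (SD, n = 3). BIRC3 and BIRC2 encode cIAP2 and cIAP1, ubiquitin ligases that promote canonical signalling and keep NIK low. The genes are neighbours on the plus strand of chromosome 11, BIRC3 from 102317450 to 102339403 and BIRC2 from 102347211 to 102378670 (GRCh38). BIRC3 stood at 98.0, 428 and 393 CPM with TIM-1 and at 173, 553 and 476 CPM in the controls. The 2 lowest libraries were those of replicate 1, and the TIM-1 library was the lower one in each pair, by log2 ratios of -0.82, -0.37 and -0.28. BIRC3 fell by 0.48 on the paired log2 scale (SE 0.08, edgeR adjusted p = 0.000275). DESeq2 with the block gave it an adjusted p of 0.114. The unpaired estimate was -0.39 (SE 0.72, edgeR adjusted p = 0.960), and without TIM-1 replicate 1 the unpaired value was 0.035. BIRC2 had a paired difference of -0.14 on the log2 scale (SE 0.07, edgeR adjusted p = 0.289). Without the replicate 3 pair BIRC2 passed, at -0.24 (edgeR adjusted p = 0.0293), and without the replicate 1 pair it was -0.00 (edgeR adjusted p = 0.992).

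RIPK1, the kinase and scaffold of the TNF receptor complex, was the only member whose groups did not overlap. It stood at 49.5, 58.4 and 59.3 CPM with TIM-1 and at 61.0, 69.5 and 71.5 CPM in the controls. Groups in which every TIM-1 library lay below every empty-vector library made up 5.06% of all tested genes, against 2.5% of the members, and the reverse order 6.60%, against 0 members. The 3 pair ratios of RIPK1 were -0.30, -0.25 and -0.27, nearly equal. Its log2 fold change was -0.27 in both fits, with an SE of 0.07 and an edgeR adjusted p of 0.0185 with pairing, and an SE of 0.11 and an adjusted p of 0.843 without it. Leaving out the replicate 2 pair raised the paired adjusted p to 0.243, and DESeq2 with the block gave 0.149.

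TRAF1, an adaptor gene induced by NF-kB, showed the widest gap between replicate numbers among the adaptors. It stood at 2.41, 16.8 and 16.6 CPM with TIM-1 and at 3.26, 23.1 and 20.03 CPM in the controls, lower in each pair. TRAF1 did not pass in the paired test (log2 fold change -0.37, SE 0.13, edgeR adjusted p = 0.0875). TRAF5, an adaptor of CD40 and related receptors, had one of 0.13 (SE 0.10, edgeR adjusted p = 0.525).

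Among the 10 feedback genes 3 fell in the paired test and 0 rose, 8 had a paired log2 fold change below 0, and the median was -0.19. Over all tested genes 1.79% fell, 3.22% rose, and 7238 of 14479 had a paired log2 fold change below 0. NFKBIA, which encodes IkB alpha, the inhibitor resynthesised after each round of activation, had the highest mean level per length of all members. It stood at 66.6, 186 and 193 CPM in TIM-1 replicates 1, 2 and 3 and at 94.4, 299 and 281 CPM in the empty-vector replicates. The ranges overlap over all 6 libraries, as both replicate 1 libraries lay below the rest. Within replicates 2 and 3 alone the groups did not overlap, with means of 190 CPM for TIM-1 against 290 CPM for the controls. How many of all tested genes show that order was not counted. The pair ratios were -0.50, -0.68 and -0.54 on the log2 scale. NFKBIA had the smallest paired p of the members, with a log2 fold change of -0.58 (SE 0.06, edgeR adjusted p = 4.23e-09). It was the 1 member called without each pair in turn, by DESeq2 with the block, and with replicate 1 against the others as the block. Unpaired, its log2 fold change was nearly the same, at -0.59, with an SE of 0.62 (edgeR adjusted p = 0.931).

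TNFAIP3, the gene of the ubiquitin-editing brake A20, stood at 11.6, 34.5 and 32.3 CPM with TIM-1 and at 17.0, 46.7 and 41.9 CPM in the controls. Its libraries were ordered like those of NFKBIA, with replicate 1 lowest in both groups and TIM-1 lower in each pair. The paired log2 fold change of TNFAIP3 was -0.44 (SE 0.10, edgeR adjusted p = 0.00204), and the unpaired one was -0.42 (SE 0.54, edgeR adjusted p = 0.940). Without the replicate 2 pair the adjusted p was 0.0878. CYLD, a deubiquitinase that removes the chains on which the IKK complex is built, stood at 43.9, 65.0 and 65.3 CPM with TIM-1 and at 55.9, 74.9 and 73.9 CPM in the controls. It fell in the paired test, by 0.24 on the log2 scale (SE 0.07, edgeR adjusted p = 0.0472), and the unpaired difference was -0.23 (SE 0.17, edgeR adjusted p = 0.917). The call of CYLD was lost in each other paired setting, at adjusted p of 0.148, 0.324 and 0.0544 without the pairs of replicates 1, 2 and 3, 0.288 by DESeq2, and 0.0704 with replicate 1 against the others as the block.

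The other 7 feedback genes did not pass. NFKBIB and NFKBIE, which encode further IkB inhibitors, and NFKBIZ, which encodes a nuclear IkB protein, were lower in each of the 3 pairs, with paired log2 fold changes of -0.18, -0.12 and -0.28. Their edgeR adjusted p were 0.138, 0.591 and 0.189. The replicate 2 pair of NFKBIE was nearly level, at 382 counts with TIM-1 against 383. The span of NFKBIB overlaps that of SIRT2 on the other strand. TNIP1, which encodes a partner of A20, had a paired log2 fold change of 0.09 and its relative TNIP2 one of -0.13. BCL3, another nuclear IkB protein gene, stood at 42.3, 23.6 and 22.8 CPM with TIM-1 and at 37.2, 22.2 and 27.5 CPM in the controls. It was the feedback gene whose replicate 1 libraries were the 2 highest, and its TIM-1 difference was 0.01 (SE 0.10, edgeR adjusted p = 0.986). ZC3H12A, which encodes an RNase that degrades inflammatory mRNA, had a paired log2 fold change of -0.19 (SE 0.14, edgeR adjusted p = 0.498).

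**Figure D3:**
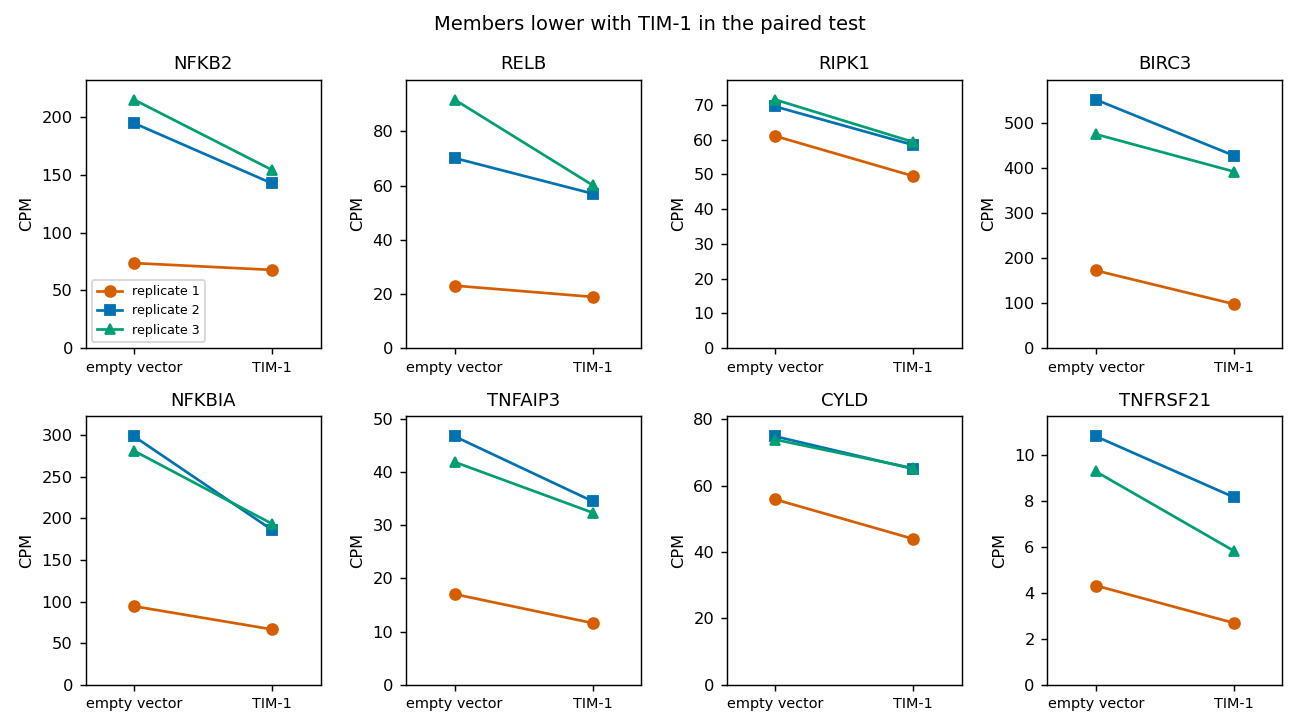
Level in CPM of the 8 members that fell in the paired test, in each library, with a line joining same-numbered libraries. Every line slopes down from empty vector to TIM-1, replicate 1 is the lowest line in every panel, and for NFKBIA the gap from replicate 1 to replicates 2 and 3 exceeds the drop with TIM-1.

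Promoter sequence was read for the 4 called members of smallest paired p that hold a match to the kappa B consensus, the site that NF-kB dimers bind, since these 4 genes are known as direct targets and fell in the paired test. RefSeq windows on GRCh38.p14, from 250 bases before to 50 after a start site, were found for 35 of the 42 members. A window was counted if the consensus, of 10 letters, occurred on either strand, and a gene once if any of its windows held it. It did for 14 of the 35 members (40%), against 13.25% of 27305 genes with a window, and for 5 of the 7 called members with a window. Uncalled members with a match included NFKB1, REL, TAB2 and MAP3K8 of the canonical arm, while TNF and CSF2, also uncalled, had none. The members were listed as NF-kB pathway and target genes, and a gene with more windows has more chances of a match. Whether matches go with the TIM-1 change was not tested. A match is a run of letters and not evidence of binding. The stretches below run 5′ to 3′ on the strand of the gene, and capitals mark the matches. For NFKB2 and TNFAIP3 the matches lie inside annotated exons, so only 30 bases are shown.
NFKBIA, chr14:35404750-35404999, minus strand: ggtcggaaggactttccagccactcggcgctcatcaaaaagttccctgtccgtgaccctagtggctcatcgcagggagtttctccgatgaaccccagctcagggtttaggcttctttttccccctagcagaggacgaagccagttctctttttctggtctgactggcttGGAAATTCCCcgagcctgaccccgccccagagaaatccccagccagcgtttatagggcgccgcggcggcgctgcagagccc
BIRC3, chr11:102317234-102317449, plus strand: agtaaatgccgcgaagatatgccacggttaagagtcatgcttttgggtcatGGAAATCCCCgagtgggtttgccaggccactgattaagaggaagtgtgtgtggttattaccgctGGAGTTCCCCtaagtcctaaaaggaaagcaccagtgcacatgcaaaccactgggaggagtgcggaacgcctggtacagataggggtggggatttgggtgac
NFKB2, chr10:102394462-102394491, plus strand: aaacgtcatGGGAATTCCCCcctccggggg
TNFAIP3, chr6:137867188-137867217, plus strand: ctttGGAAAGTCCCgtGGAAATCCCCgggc

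Positions are counted from the start site, with negative values before it. The NFKBIA stretch holds 1 match, at -81 to -72. BIRC3 has 2 that lie apart, at -199 to -190 and at -135 to -126. The TNFAIP3 stretch has a pair close together, at -67 to -58 and -55 to -46. In the NFKB2 stretch the 2 matches, at -107 to -98 and -106 to -97, overlap, and further matches of NFKB2 lie outside the stretch shown. The third called feedback gene, CYLD, also had a match in a window, whereas RIPK1 and TNFRSF21 had none in theirs.

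Of the 7 receptor genes 6 were tested, 1 fell in the paired test and 0 rose, against 1.79% of all tested genes lower and 3.22% higher. TNFRSF12A, the TWEAK receptor, had the highest level per length at 52.1 ± 5.37 CPM per kilobase with the empty vector (SD, n = 3). It stood at 86.2, 89.4 and 93.4 CPM with TIM-1 and at 92.0, 108 and 89.4 CPM in the controls, in overlapping ranges (paired log2 fold change -0.10, SE 0.07, edgeR adjusted p = 0.488). TNFRSF1A, the main TNF receptor of most cells, and LTBR, the lymphotoxin beta receptor, had paired log2 fold changes of -0.02 and 0.02. Their replicate 1 differences were also small, at 0.09 and -0.18 on the log2 scale.

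TNFRSF21, a receptor with a death domain, had low counts and fell in the paired test. It stood at 2.69, 8.17 and 5.83 CPM with TIM-1, from 39, 132 and 108 counts, and at 4.32, 10.8 and 9.29 CPM with the empty vector. The ranges overlap, and TIM-1 was lower in each pair by log2 ratios of -0.68, -0.41 and -0.67. The paired log2 fold change of TNFRSF21 was -0.57 (SE 0.17, edgeR adjusted p = 0.0375), and the unpaired one -0.54 (SE 0.43, edgeR adjusted p = 0.921). It passed in none of the other paired settings, with adjusted p of 0.0591, 0.198 and 0.224 without the pairs of replicates 1, 2 and 3, 0.393 by DESeq2, and 0.0730 with replicate 1 against the others as the block.

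CD40, a costimulatory receptor of the noncanonical route, was the tested member with the highest paired log2 fold change. It stood at 48.6, 41.9 and 43.8 CPM with TIM-1 and at 42.7, 36.3 and 34.1 CPM in the controls. TIM-1 was the higher library in each pair, while the ranges overlap through empty-vector replicate 1. The paired log2 fold change of CD40 was 0.25 (SE 0.08, edgeR adjusted p = 0.0685), above the threshold. TNFRSF9, the receptor 4-1BB, had 15, 34 and 32 counts with TIM-1 against 8, 62 and 68 in the controls. It was higher with TIM-1 in the replicate 1 pair and lower in the others, and the paired estimate on the log2 scale was -0.68 (SE 0.32, edgeR adjusted p = 0.244). It was -1.06, -0.52 and -0.26 without the pairs of replicates 1, 2 and 3 (edgeR adjusted p = 0.0260, 0.727 and 0.871). TNFRSF1B, the second TNF receptor, had at most 9 counts in a library and was not tested.

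Of the 6 ligand and target genes 5 were tested and 0 passed in either direction. Over all tested genes 1.79% fell and 3.22% rose in the paired test, so 0 calls among so few genes says little. LIF, a cytokine of the interleukin 6 family, had the highest level per length of the group. It stood at 41.0, 53.1 and 51.3 CPM with TIM-1 and at 36.5, 78.8 and 78.3 CPM in the controls, where replicate 1 was again the lowest. The TIM-1 library was the higher one in the replicate 1 pair and the lower one in the others. The paired log2 fold change of LIF was -0.36 (SE 0.13, edgeR adjusted p = 0.139). Without the pairs of replicates 1, 2 and 3 it was -0.59, -0.25 and -0.23 (edgeR adjusted p = 6.22e-06, 0.398 and 0.156).

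TNF itself was near the detection limit. TIM-1 libraries held 0, 5 and 14 counts and controls 2, 27 and 24, and the 0 allows up to 0.207 CPM, a limit for counting error only. That limit is above the 0.125 CPM of control replicate 1, so the direction in the replicate 1 pair is not established. TNF was lower with TIM-1 in the pairs of replicates 2 and 3, with a paired log2 fold change of -1.61 (SE 0.54, edgeR adjusted p = 0.0709) that depends on the prior count at such levels. CSF1, the macrophage growth factor, had a paired log2 fold change of -0.04 (SE 0.10). CSF2, the gene of GM-CSF, had 1, 10 and 25 counts with TIM-1 against 0, 19 and 14 in the controls. TNFAIP2, a TNF-induced gene, had a paired log2 fold change of -0.28 (SE 0.30, edgeR adjusted p = 0.672). ICAM1, an adhesion molecule and a standard NF-kB target in other cells, had between 1 and 5 counts per library and was not tested.

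The arms can be set side by side by their medians. The median paired log2 fold change was 0.00 in the canonical arm, -0.06 in the receptors, -0.19 in the feedback genes, -0.24 in the noncanonical arm, -0.27 in the adaptors and -0.28 in the ligands and targets. In that order the medians are over 10, 6, 10, 4, 5 and 5 tested genes. That of the adaptors is the value of RIPK1. That of the ligands and targets is the value of TNFAIP2 (SE 0.30), which was not called. The difference between replicate 1 and the others, averaged over both groups on a log2 scale with a prior count of 2, is given for the same arms. Its median was -0.12 in the canonical arm, -0.14 in the receptors, -0.42 in the adaptors, -0.55 in the feedback genes, -0.77 in the noncanonical arm and -0.85 in the ligands and targets. These differences between arms were not tested.

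The 8 called members were lower in replicate 1 as well, with mean log2 differences of -0.23 for RIPK1, -0.49 for CYLD, -1.25 for TNFRSF21, -1.30 for NFKB2, -1.44 for TNFAIP3, -1.56 for NFKBIA, -1.71 for RELB and -1.82 for BIRC3. Except for RIPK1, the replicate 1 difference was larger in size than the TIM-1 difference of the same gene. The replicate 1 difference was below 0 in both groups for 28 of the 40 tested members and above 0 in both for 5. Its size in the TIM-1 and control groups differed by a median of 0.15 over the members. It was -1.51 and -1.62 for NFKBIA but -2.06 and -1.57 for BIRC3, a gap close to the paired TIM-1 change of BIRC3, -0.35 and -1.10 for LIF, and -0.79 and -2.71 for TNFRSF9, the widest gap. Over the 40 tested members the paired TIM-1 change and the replicate 1 difference were related with Pearson's r = 0.66 and Spearman's rho = 0.68. Over all tested genes these were 0.26 and 0.30, the genes share the same 6 libraries, and the values are descriptions. What set replicate 1 apart is not in the labels, and its part in the TIM-1 result was not tested. Without the replicate 1 pair 8 of 40 members were called, all lower, against 2.73% of 14558 tested genes lower, and 6 of them were shared with the full paired test.

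**Figure D4:**
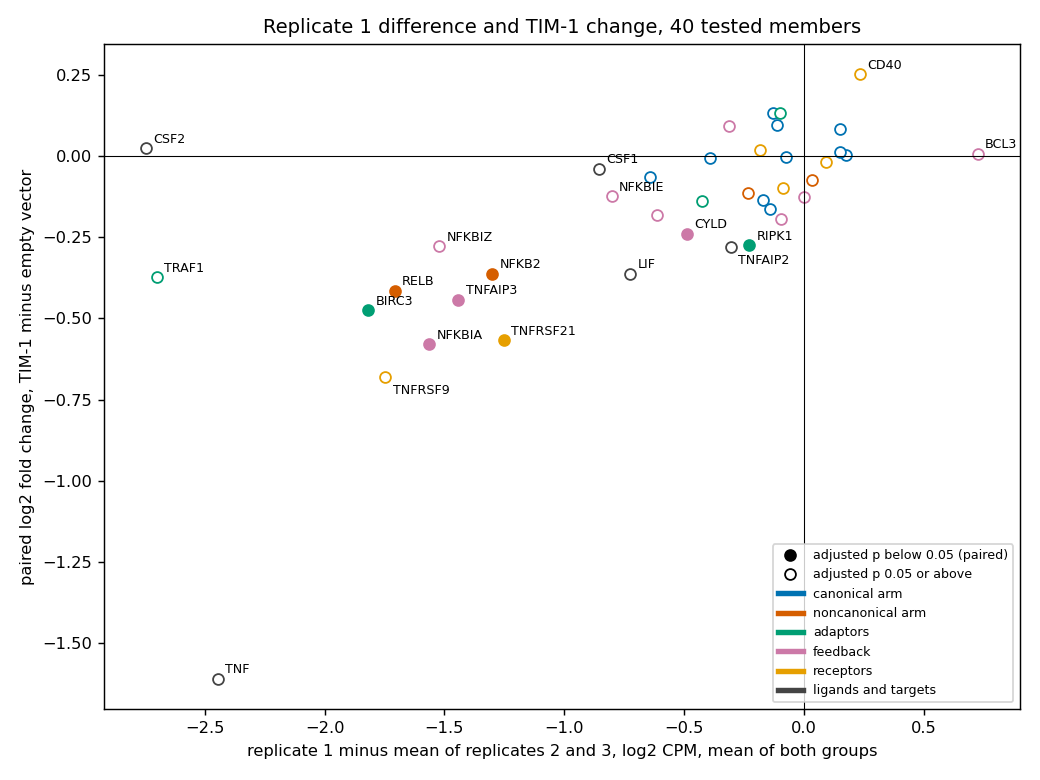
Paired log2 fold change with TIM-1 against the log2 difference of replicate 1 from replicates 2 and 3 for the 40 tested members, coloured by role. The 8 filled, called members lie below and to the left of 0, CSF2 and TRAF1 are far to the left without a call, and BCL3 is the member farthest to the right.

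Other genes of the pathway, from lists of components and of textbook targets outside the 42, were tested in the same fits. Of 34 tested components 1 fell and 1 rose in the paired test, with a median log2 fold change of 0.02. Over all tested genes 1.79% fell and 3.22% rose. IRAK2, a kinase of the interleukin 1 receptor complex, fell from 36.3 ± 14.1 to 27.9 ± 10.1 CPM (SD, n = 3 each; paired log2 fold change -0.37, edgeR adjusted p = 0.0111). Its call was lost when the replicate 2 pair was left out (adjusted p = 0.365) and when DESeq2 was used with the block (0.149). PELI1, a ubiquitin ligase of the same complex, rose from 4.12 ± 0.879 to 6.30 ± 0.906 CPM (SD, n = 3 each; paired log2 fold change 0.62, edgeR adjusted p = 0.0457). It passed in 0 of the other 5 paired settings.

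Of 24 tested targets 4 fell and 2 rose in the paired test, against 1.79% and 3.22% of all tested genes, and the median was 0.01. The chemokine genes CXCL2 and CXCL1 fell by 0.47 and 0.34 on the log2 scale (edgeR adjusted p = 0.000185 and 0.0123), and both were lower in replicate 1, by -2.33 and -3.00. PLAU, the gene of urokinase, fell by 0.23 and the cyclin gene CCND1 by 0.19 (edgeR adjusted p = 0.0105 and 0.0442). VEGFA, an angiogenic growth factor gene, and IER3, a stress response gene, rose by 0.52 and 0.33 (edgeR adjusted p = 7.57e-06 and 0.00496). CXCL2 and VEGFA passed in all 5 other paired settings. CCND1, named after its values were seen, passed in 0. PLAU was lost without the pairs of replicates 2 (adjusted p = 0.265) and 3 (0.0573). CXCL1 was lost without the same pairs (0.388 and 0.0753) and by DESeq2 with the block (0.165), and IER3 when the replicate 3 pair was left out (0.0728) or DESeq2 was used (0.0986). In the unpaired edgeR test 0 of the 58 genes of both lists passed, and unpaired DESeq2 called 0. Of the 58, 3 had an unadjusted p under 0.05 in the unpaired edgeR test, against 5.49% of all tested genes.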

How the data were processed

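RNA sequencing of 3 TIM-1 and 3 empty-vector libraries of UMUC3 cells was used. The values are raw counts per gene as deposited by the authors, and the submitters' processing notes name the build hg38, HISAT2 2.0.5, featureCounts 1.5.0-p3 and DESeq2 1.16.1. For the annotation release, strandedness and reads with several matches: not given in the sources used here.

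Groups were taken from the labels. Symbols were joined to the deposited Ensembl identifiers, and exon lengths came from GENCODE 29 (GRCh38). Genes with enough counts (filterByExpr of edgeR 4.0.16 in R 4.3.3, minimum count 10) numbered 14479. They were scaled by TMM and tested with edgeR's quasi-likelihood F test, robust, with Benjamini-Hochberg adjustment over all tested genes and a threshold of 0.05. Standard errors were computed from the fold change and its F. The main fit had group alone, with 4 residual degrees of freedom, and a second had the replicate number as a block, with 2. The pairing was checked on deviations from the group means: same-numbered libraries correlated at 0.53, 0.23 and 0.26, and the others at -0.40 to 0.26. All 3 exceed 0.1, the limit set for using the numbers as pairs, and the labels state no shared origin. TIM-1 replicate 3 with control replicate 2 (0.26) and TIM-1 replicate 2 with control replicate 3 (0.19) correlated about as well, so the data set replicate 1 apart and do not favour 2 with 2 and 3 with 3 over the swap. Replicates of a group differed beyond sampling noise. Alternatives were RLE scaling, other count filters, DESeq2 1.42.0, leaving out libraries or pairs, and replicate 1 against the others as the block. The tests were tried on simulated data in which same-numbered libraries shared an effect by construction. That trial therefore does not bear on whether the numbers are true pairs here.

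The 42 members and all lists were chosen with earlier results of these data known. Values in every library are given for members called in either fit and, in each role, for the member of highest level per length and that of largest paired change, and for a few others chosen after their values were seen (TRAF1, CD40, BCL3 and CSF2). From the other lists up to 3 called genes of smallest p in each direction were named, with CCND1 added. Promoters came from RefSeq (GRCh38.p14). Totals of 14312387 to 18605914 counts put 3 counts, the limit that a count of 0 allows, at 0.162 to 0.207 CPM, for counting error only.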

Additional observations from a re-analysis of the deposited data

How the results depend on the processing

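Over all tested genes 2 were called in the unpaired edgeR test, and RLE scaling and a minimum count of 30 gave 2 each. The count was 72 with no filter, 25 by DESeq2, 1 to 9 without 1 library, 725 with the replicate block, 209 by DESeq2 with the replicate block, 209 to 838 with the replicate block and without a pair (473 without the pair of replicate 3), and 510 with replicate 1 against the others as the block. Of the members 0 were called unpaired, under every unpaired alternative run. With pairing, 8 were called with the replicate block, 4 by DESeq2 with it, 3 to 8 without a pair, and 6 with replicate 1 against the others as the block, all lower. Of the other pathway and target genes 0 were called unpaired, against 8, 3, 3 to 7 and 6 in the same order. The unpaired log2 fold change of BIRC3 was 0.035 without TIM-1 replicate 1, against -0.39 with all libraries, and leaving out each library gave -0.75 to 0.035. For the other 7 called members, leaving out 1 library kept the unpaired direction, with ranges of -0.97 to -0.25 for NFKBIA and -0.83 to -0.04 for RELB among them. The cause of these changes was not tested. The paired fit has 2 residual degrees of freedom, and genes with few counts, such as TNF, TNFRSF9 and CSF2, had standard errors of 0.32 or more.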
